A study of Mus musculus with 6 samples.

Results

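This account describes 60 mouse genes that act in mitosis: kinases, cyclins, kinesins, kinetochore proteins, regulators of the anaphase-promoting complex, cytokinesis factors and condensin subunits. They were chosen by name, and a gene was tested if 1 of its probes had a detection p-value under 0.05 on at least 3 arrays. The detection p-value compares a probe's signal with the negative control probes of the same array. Of the 60 genes, 51 had a probe under their own symbol and 39 passed this filter, out of 8549 genes tested on the arrays. Another 12 had a probe that did not pass it, and 9 (Aurkb, Cenpf, Ckap2, Kif20a, Kif20b, Ncapg, Nuf2, Racgap1 and Smc4) had no probe under the symbol used here.

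The samples were hepatic progenitor cells, liver epithelial cells from which hepatocytes and bile duct cells can form, taken from livers of C57BL/6 mice. Met fl/fl cells, in which both copies of the hepatocyte growth factor receptor gene are floxed, gave 3 arrays, and Egfr fl/fl cells, in which both copies of the epidermal growth factor receptor gene are floxed, gave 3 more. The livers are labelled as controls in both groups, and the labels name no recombinase, so each floxed gene is taken as intact. The labels do not say how many animals or cultures the samples came from, whether the cells had been passaged, or which arrays shared a slide, so a p-value here reflects only how these samples vary, possibly for technical reasons.

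A cell enters mitosis when cyclin B and Cdk1 become active, helped by Cdc25 phosphatases and Polo-like kinase. Kinesins and Aurora kinases then build the spindle, and the checkpoint proteins at the kinetochores hold back the anaphase-promoting complex until all chromosomes are attached. Cdc20 switches that complex on, separase cuts cohesin, and the midzone proteins divide the cell. Hepatocytes of an adult liver rarely divide, and transcripts of these genes are abundant mainly in dividing cells. In a bulk sample, fewer cells in mitosis and less RNA per cell cannot be told apart.

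Of the 39 tested mitotic genes, 29 were higher in Met fl/fl cells than in Egfr fl/fl cells, 2 were lower and 8 did not pass the test (limma, Benjamini-Hochberg adjusted p under 0.05 over all tested probes). The 29 were 74.4% of the tested members, and the share called higher among all genes tested was 22.8%. The 2 called lower were 5.13%, beside 18.5% of all genes, and the 31 called in either direction stand beside 41.3% of all genes. In 31 members every Met fl/fl value lay above every Egfr fl/fl value, a pattern that 28.8% of all genes had, and in 2 members every Met fl/fl value lay below, as in 23.3% of all genes. At least a 2-fold difference together with the call was found in 21 members upward, beside 7.79% of all genes, and in 1 member downward, beside 8.08%. The median difference, Met fl/fl minus Egfr fl/fl on the log2 scale, was 1.08 over the tested members, from -2.48 to 1.82, and 0.069 over all genes tested.

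A filter on detection lets a gene pass through the group in which it is high. Of the 39 tested members, 34 were detected on all 6 arrays, and 5 (Aspm, Cdc25b, Cdc25c, Kif2c and Ube2c) were not. Among the 34, 26 were higher in Met fl/fl and 1 was lower, against background shares of 23.2% higher and 17.8% lower among the genes detected on all 6 arrays.

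**Figure D1:**
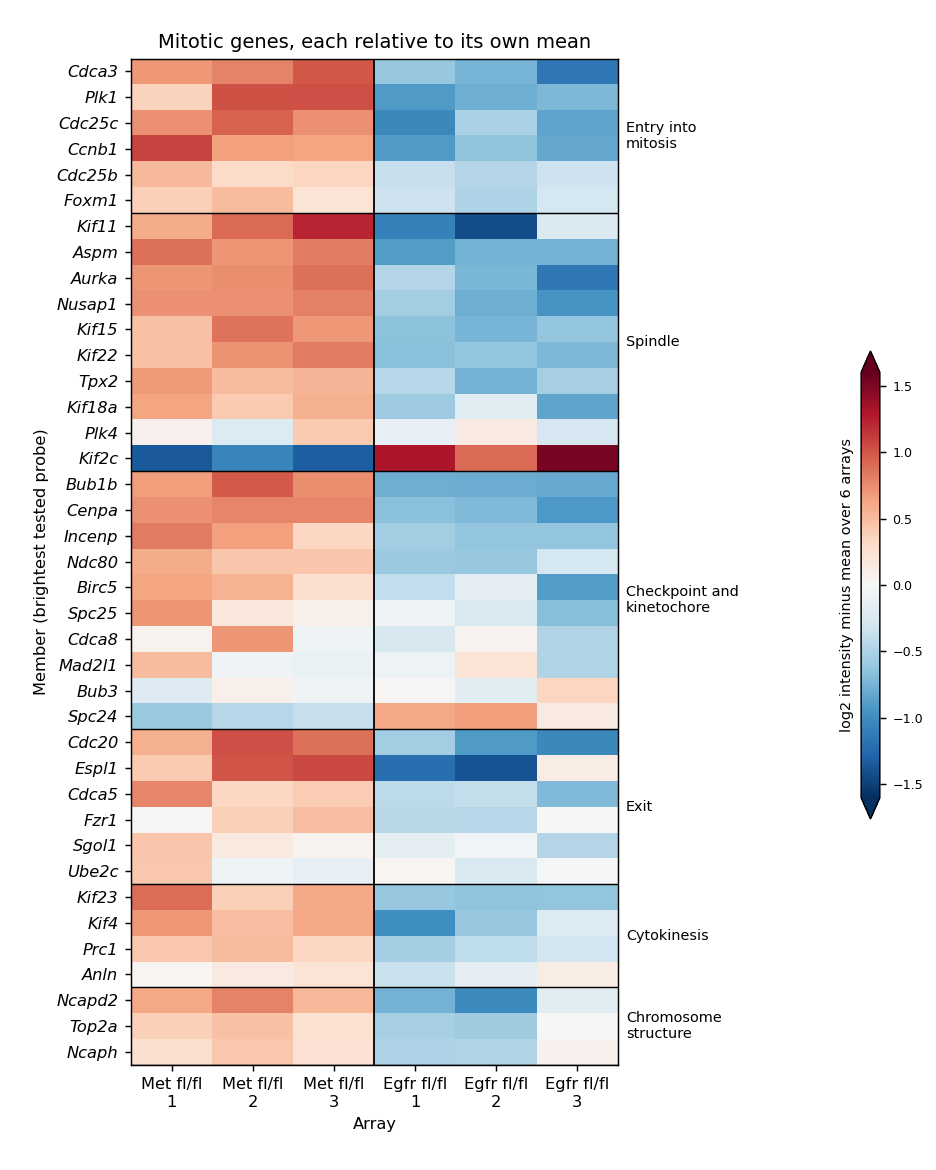
Level of each tested mitotic gene (rows, brightest tested probe, grouped by role) on each array (columns, Met fl/fl replicates 1 to 3 left, Egfr fl/fl replicates 1 to 3 right), as log2 intensity minus the gene's mean over the 6 arrays, with colours ending at -1.6 and 1.6. Most rows are red on the left and blue on the right, while Kif2c and Spc24 run the other way.

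Averaged over all probes, the deposited intensity came to 398, 289 and 275 for the Met fl/fl arrays and to 241, 248 and 321 for the Egfr fl/fl arrays, with 43.8% to 45.3% of probes detected per array. Arrays correlated at 0.967 to 0.992 within a group and at 0.891 to 0.921 between groups, over all tested probes. Among the 39 members, Egfr fl/fl replicate 3 was the highest array of its group in 17 (43.6%, beside 43.3% of all genes tested). It was the lowest in 16 and between the others in 6. In 6 members (15.4%, beside 39.7% of all genes) it lay nearer the Met fl/fl mean than the mean of the other Egfr fl/fl arrays. Among called genes only, replicate 3 lay nearer the Met fl/fl mean in 4 of 31 members (12.9%), beside 15.0% of all genes called. Without it 30 members were higher and 2 lower in Met fl/fl, and with it alone standing for Egfr fl/fl 25 were higher and 1 was lower. In every such fit with 1 Egfr fl/fl array the spread comes from the Met fl/fl arrays, and that array is assumed to vary like them.

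Many mitotic genes share short elements next to their start of transcription, a CCAAT box bound by NF-Y and a cell cycle homology region (CHR) bound by the DREAM and MuvB complexes. Promoter windows from RefSeq on build GRCm38.p6, 250 bases before to 50 after the start, were found for 50 of the 60 members, as 53 windows. The letters searched on both strands were CCAAT for the box, the 6-letter word TTTGAA and its variant spelled TTCGAA for the CHR, and the 8-letter words TTTCCCGC and, as an alternative, TTTGGCGC for an E2F site; matches to different motifs overlapped in 1 member window. A CCAAT box was in 73.6% of member windows, against 37.4% of all 32851 windows in the table, and CHR letters were in 75.5%, against 19.2%. Within 60 bases of the start the CHR letters were in 67.9% of member windows, against 5.90% of all windows. Over the whole window an E2F site was in 7.55% of member windows, against 1.56% of all windows. E2F sites were more frequent in the other cell cycle lists described below. They were in 9.38% of windows of the wider mitosis list, 22.95% of replication and G1/S and 13.6% of regulators. Within 60 bases of the start, CHR letters were in 30.2%, 6.56% and 13.6% of windows of these lists, in that order. Over the whole window a CCAAT box was in 60.4%, 54.1% and 50% of them. The share with CHR letters was 76.9% among windows of the members called higher in Met fl/fl, 77.8% among those tested and not called, and 70.6% among those not tested. A match is a description of the letters, not a site of binding. The 120 bases before the start are printed below for 5 genes of exit, spindle and cytokinesis that were higher in Met fl/fl and hold CHR letters there, for Ncapd2, which has an E2F site near the start, and for Kif2c, which went the other way. Capitals mark the matches.
Cdc20: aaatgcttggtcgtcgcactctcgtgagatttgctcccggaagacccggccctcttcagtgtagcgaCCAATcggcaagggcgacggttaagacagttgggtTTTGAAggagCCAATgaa
Espl1: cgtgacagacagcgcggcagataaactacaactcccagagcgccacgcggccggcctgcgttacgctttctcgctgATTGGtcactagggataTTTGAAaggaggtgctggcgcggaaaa
Kif11: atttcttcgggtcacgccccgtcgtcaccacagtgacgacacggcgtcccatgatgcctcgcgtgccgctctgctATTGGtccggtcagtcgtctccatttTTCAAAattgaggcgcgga
Prc1: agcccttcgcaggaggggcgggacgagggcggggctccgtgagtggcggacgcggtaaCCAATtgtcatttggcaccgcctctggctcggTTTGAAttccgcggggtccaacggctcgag
Cdca5: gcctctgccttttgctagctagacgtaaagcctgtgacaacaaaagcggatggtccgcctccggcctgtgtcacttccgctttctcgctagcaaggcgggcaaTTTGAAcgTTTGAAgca
Ncapd2: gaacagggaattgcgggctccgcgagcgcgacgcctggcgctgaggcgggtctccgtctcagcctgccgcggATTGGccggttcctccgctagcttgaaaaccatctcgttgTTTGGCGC
Kif2c: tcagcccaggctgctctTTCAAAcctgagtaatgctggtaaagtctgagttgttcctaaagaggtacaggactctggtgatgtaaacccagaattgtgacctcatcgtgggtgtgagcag
These stretches are chr4:118437344-118437463 on the minus strand for Cdc20, chr15:102296173-102296292 on the plus strand for Espl1 and chr19:37376262-37376381 on the plus strand for Kif11. The others are chr7:80294356-80294475 on the plus strand for Prc1, chr19:6084977-6085096 on the plus strand for Cdca5, chr6:125191587-125191706 on the minus strand for Ncapd2 and chr4:117178773-117178892 on the minus strand for Kif2c. Prc1 has more than 1 start in the table, and the one farthest downstream is shown. A CCAAT box began 53 bases before the start in Cdc20, 44 in Espl1, 45 in Kif11 and 62 in Prc1. The CHR letters followed it at 18, 27, 19 and 30 bases before the start in the same genes, and Cdc20 had another CCAAT box after them, at 8 bases. Cdca5 had them at 17 and 9 bases with no CCAAT box. In Kif2c the CHR letters began 103 bases before the start and no CCAAT box was found in the window.

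All 6 tested genes of mitotic entry, of 10 listed, were higher in Met fl/fl, with a median difference of 1.59. Cdca3, which in frog egg extracts marks the inhibitor Wee1 for destruction, had log2 intensities of 10.65, 10.75 and 10.94 on the Met fl/fl arrays, against 9.35, 9.21 and 8.81 on the Egfr fl/fl arrays. The groups were far apart beside the spread within each, with replicate 3 the lowest of the Egfr fl/fl arrays. The difference was 1.66 ± 0.16 (SE), or 3.15-fold (adjusted p = 4.02e-05 by limma), and the gene's other probe gave 1.58. Plk1, the Polo-like kinase that promotes entry and spindle assembly, had 10.09, 10.75 and 10.75 in Met fl/fl, against 8.82, 8.94 and 9.01 in Egfr fl/fl. Met fl/fl replicate 1 was the lowest of its group and still lay above all Egfr fl/fl arrays. Plk1 differed by 1.61 ± 0.19 (SE), 3.05-fold (adjusted p = 1.12e-04 by limma).

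Cdc25c, a phosphatase that removes inhibitory phosphates from Cdk1, had log2 intensities of 6.69, 6.90 and 6.70 in Met fl/fl, against 4.93, 5.44 and 5.11 in Egfr fl/fl, where 2 of 3 arrays detected it. All Met fl/fl arrays were above all Egfr fl/fl arrays, and because 1 Egfr fl/fl array lacked detection the difference is a bound. The Met fl/fl level was at least 3.03-fold higher (adjusted p = 1.76e-04 by limma), and a further tested probe, detected on 1 Egfr fl/fl array, gave at least 3.20-fold. Cdc25b, a phosphatase that starts Cdk1 activation, was detected on all Met fl/fl arrays and on none of Egfr fl/fl, a difference of at least 1.36-fold. Ccnb1, the cyclin B1 partner of Cdk1, differed by 1.57 on its brightest probe and by 1.66 on the other. Foxm1, a transcription factor of late cell cycle genes, differed by 0.74 and 0.73 on its probes; the brighter gave 0.67 without Met fl/fl replicate 2, which missed the threshold (adjusted p = 0.051 by limma). The 4 entry genes that were not tested were Ccna2, Ccnb2, Cks2 and Wee1, none detected on any array.

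Of the spindle genes, 10 of 13 listed were tested, 8 were higher in Met fl/fl, 1 was lower and 1 did not pass, with a median difference of 1.34. Kif11, the kinesin that pushes the spindle poles apart, had 8.06, 8.37 and 8.68 in Met fl/fl, against 6.39, 6.04 and 7.23 in Egfr fl/fl. The groups did not overlap, and Egfr fl/fl replicate 3, which set against Met fl/fl alone gave 1.14, was the nearest. The difference was 1.82 ± 0.30 (SE), 3.52-fold (adjusted p = 0.00102 by limma). Aspm, a spindle pole protein, had 6.56, 6.37 and 6.49 in Met fl/fl, against 4.78, 4.92 and 4.92 in Egfr fl/fl, where 2 arrays detected it. Every Met fl/fl array was well above every Egfr fl/fl array, so the Met fl/fl level of Aspm was at least 2.93-fold higher (adjusted p = 5.67e-05 by limma).

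The other spindle genes that rose were the Aurora kinase Aurka (1.56), its activator Tpx2 (1.16), the microtubule-bundling protein Nusap1 (1.52) and the kinesins Kif15 (1.35), Kif22 (1.34) and Kif18a (1.08), each on the log2 scale. Kif15 can take over the pole-separating role of Kif11, Kif22 binds chromosome arms and pushes them along microtubules, and Kif18a shortens the plus ends of kinetochore microtubules. Plk4, the kinase of centriole duplication, differed by 0.18 ± 0.22 (SE) and did not pass (adjusted p = 0.549 by limma), with overlapping groups.

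Kif2c, the kinesin that takes apart microtubules at faulty kinetochore attachments, was the spindle gene that fell. Its log2 intensities were 4.38, 4.67 and 4.40 in Met fl/fl, where no array detected it, and 7.01, 6.63 and 7.24 in Egfr fl/fl, where all 3 did. The Met fl/fl values lie at the level of undetected probes, so the fitted difference is larger than the bound that they support. The Egfr fl/fl level was at least 4.03-fold higher, with a fitted difference of -2.48 ± 0.20 (SE) (adjusted p = 1.29e-05 by limma). It had 1 tested probe, so no second probe bears on it.

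**Figure D2:**
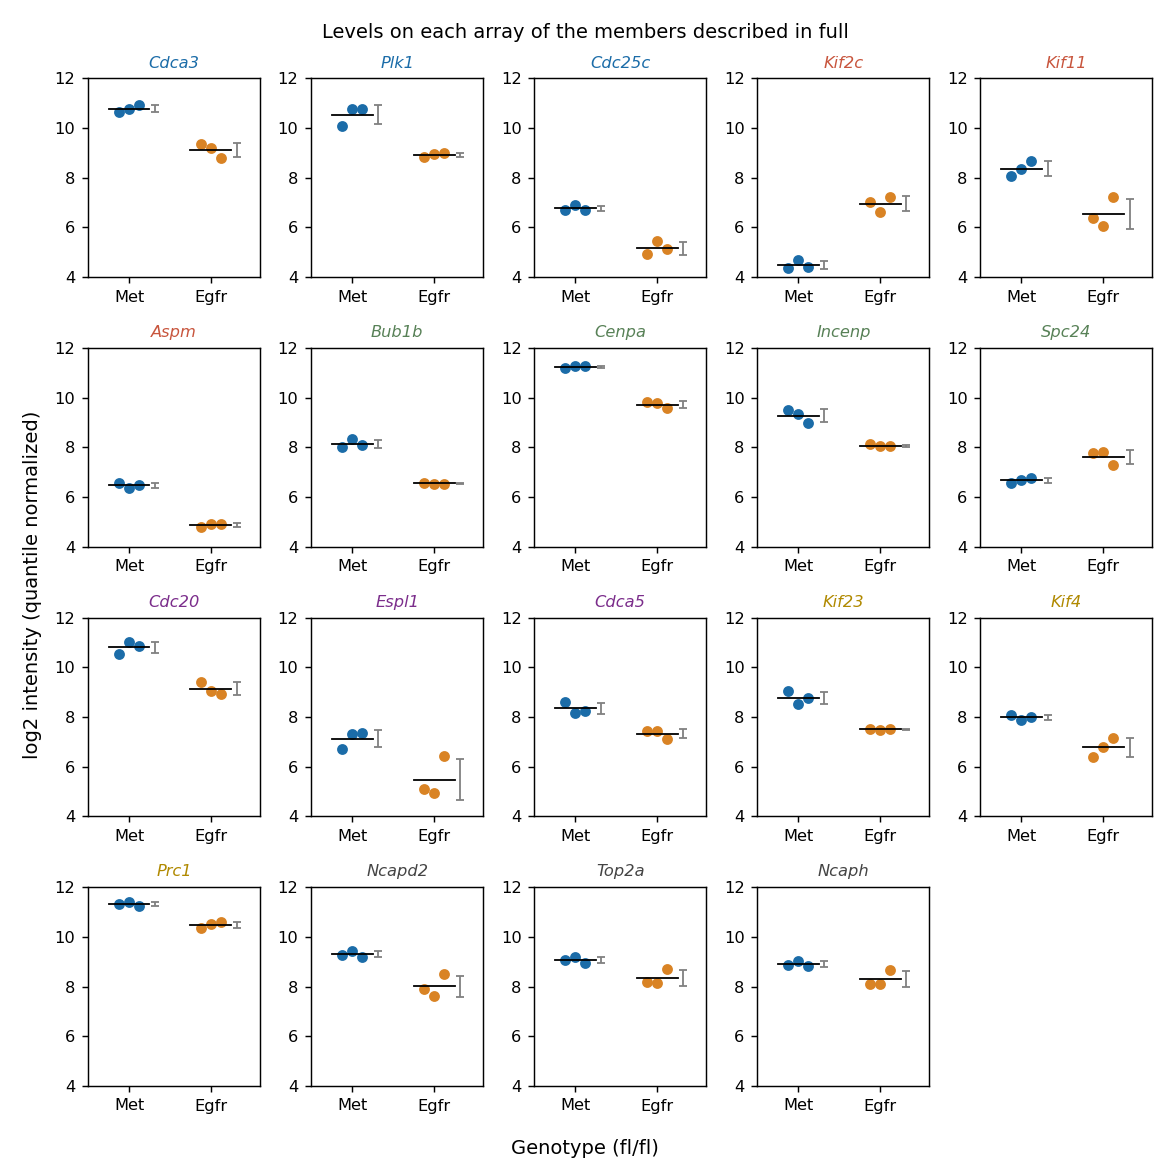
Log2 intensity on each array (points, left to right replicates 1 to 3) of the members with full values, Met fl/fl left and Egfr fl/fl right in each panel, with the group mean (line) and SD (grey bar, n = 3). Kif2c is low on all Met fl/fl arrays, at 4.38 to 4.67, and Espl1 has 1 Egfr fl/fl array, at 6.42, far above the other two.

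The checkpoint and kinetochore genes were mixed: 10 of 16 listed were tested, 5 were higher in Met fl/fl, 1 was lower and 4 did not pass, with a median difference of 0.81. The class was not tested against the others. Bub1b, a checkpoint protein that inhibits Cdc20, had 8.003, 8.32 and 8.08 in Met fl/fl, against 6.56, 6.54 and 6.53 in Egfr fl/fl. The Egfr fl/fl arrays were nearly identical and all lay below Met fl/fl, a difference of 1.59 ± 0.18 (SE), 3.01-fold (adjusted p = 8.78e-05 by limma). Cenpa, the histone H3 variant that marks centromeres, had 11.20, 11.26 and 11.26 in Met fl/fl, against 9.81, 9.78 and 9.57 in Egfr fl/fl. The spread was small in both groups, and Cenpa differed by 1.52 ± 0.12 (SE), 2.88-fold (adjusted p = 9.10e-06 by limma).

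Incenp, the scaffold of the chromosomal passenger complex, had 9.50, 9.33 and 8.997 in Met fl/fl, against 8.12, 8.04 and 8.05 in Egfr fl/fl. Met fl/fl replicate 3 was the lowest of its group and remained above all Egfr fl/fl arrays. The difference was 1.21 ± 0.16 (SE), 2.31-fold (adjusted p = 3.40e-04 by limma). Birc5 (survivin), another subunit of that complex, differed by 0.96 on its brightest probe, but its other probes gave 0.30 and 0.52 and did not pass. Cdca8 (borealin), also a subunit, gave 0.46 and did not pass (adjusted p = 0.174 by limma).

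The 4 subunits of the Ndc80 complex, which ties kinetochores to microtubules, did not give 1 pattern. Ndc80 was higher in Met fl/fl by 0.98, and both probes of Spc25 gave positive differences, 0.65 and 0.71, that did not pass (adjusted p = 0.0513 and 0.0588 by limma). Spc24 had 2 tested probes that passed in opposite directions. The brighter had 6.55, 6.69 and 6.77 in Met fl/fl, against 7.76, 7.81 and 7.28 in Egfr fl/fl, a difference of -0.95 ± 0.20 (SE) (adjusted p = 0.00477 by limma). The other had 7.26, 7.48 and 7.11 in Met fl/fl, against 5.91, 6.74 and 5.97 in Egfr fl/fl, a difference of 1.08 ± 0.25 (SE) (adjusted p = 0.00732 by limma). In both probes the groups do not overlap, so the direction for Spc24 depends on the probe. With replicate 3 alone standing for Egfr fl/fl the brighter gave -0.61, which was not called. Nuf2, the remaining subunit, is in the table under the older symbol Cdca1, outside the rule, and no array detected it.

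The checkpoint protein Mad2l1, which binds and holds Cdc20, gave 0.23 (adjusted p = 0.434 by limma) and its partner Bub3 gave -0.12 (adjusted p = 0.662 by limma), with overlapping groups for both.

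Of the genes of mitotic exit, 6 of 7 listed were tested, 4 were higher in Met fl/fl and 2 did not pass, with a median of 0.80. Cdc20, the activator of the anaphase-promoting complex whose promoter is printed above, had 10.54, 11.01 and 10.85 in Met fl/fl, against 9.42, 9.06 and 8.94 in Egfr fl/fl. The groups were far apart, by 1.66 ± 0.17 (SE), 3.15-fold (adjusted p = 5.16e-05 by limma), and all 4 of its tested probes were called higher. Espl1 (separase), the protease that cuts cohesin, had 6.72, 7.31 and 7.35 in Met fl/fl, against 5.10, 4.92 and 6.42 in Egfr fl/fl. Egfr fl/fl replicate 3 was far above the other Egfr fl/fl arrays and just below the lowest Met fl/fl array. Espl1 differed by 1.65 ± 0.37 (SE), 3.14-fold (adjusted p = 0.00573 by limma), and by 0.71 with replicate 3 alone standing for Egfr fl/fl, which did not pass (adjusted p = 0.0954 by limma).

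Cdca5 (sororin), which protects cohesin until anaphase, had 8.61, 8.17 and 8.24 in Met fl/fl, against 7.42, 7.45 and 7.13 in Egfr fl/fl. All Met fl/fl arrays were above all Egfr fl/fl arrays, by 1.01 ± 0.19 (SE), 2.01-fold (adjusted p = 0.00218 by limma). Fzr1, the activator that replaces Cdc20 late in mitosis, differed by 0.60, 0.98 and 0.91 on its 3 tested probes, all called. Its brightest probe did not pass without Egfr fl/fl replicate 1 or 2 or Met fl/fl replicate 2 or 3, at 0.50 to 0.55. Sgol1 (shugoshin), which guards centromeric cohesin, gave 0.44 (adjusted p = 0.109 by limma) and Ube2c, the ubiquitin-conjugating enzyme of the anaphase-promoting complex, gave 0.16 (adjusted p = 0.513 by limma). Ube2c was detected on 1 Met fl/fl and 2 Egfr fl/fl arrays, close to background.

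Of the cytokinesis genes, 4 of 8 listed were tested, 3 were higher in Met fl/fl and 1 did not pass, with a median of 1.02. Kif23, the motor of the centralspindlin complex, had 9.03, 8.51 and 8.74 in Met fl/fl, against 7.53, 7.49 and 7.50 in Egfr fl/fl. Its Egfr fl/fl arrays were nearly identical and all below Met fl/fl, by 1.26 ± 0.17 (SE), 2.39-fold (adjusted p = 3.68e-04 by limma). Kif4, a chromokinesin that works with Prc1 at the midzone, had 8.08, 7.87 and 7.997 in Met fl/fl, against 6.40, 6.78 and 7.16 in Egfr fl/fl. The Egfr fl/fl arrays were widely spread and stayed below Met fl/fl, by 1.20 ± 0.22 (SE), 2.30-fold (adjusted p = 0.00188 by limma), while its other tested probes gave 0.91, called, and 0.52, not called. Prc1, which crosslinks antiparallel microtubules, had 11.34, 11.41 and 11.24 in Met fl/fl, against 10.37, 10.50 and 10.60 in Egfr fl/fl. The difference was 0.84 ± 0.12 (SE), 1.79-fold (adjusted p = 4.06e-04 by limma), with no overlap. Anln (anillin), a scaffold of the contractile ring, differed by 0.27 ± 0.15 (SE) and did not pass (adjusted p = 0.176 by limma).

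All 3 tested genes of chromosome structure, of 6 listed, were higher in Met fl/fl, with a median of 0.73. Ncapd2, a condensin subunit, had 9.28, 9.45 and 9.19 in Met fl/fl, against 7.90, 7.63 and 8.49 in Egfr fl/fl. The groups differed by 1.30 ± 0.21 (SE), 2.46-fold (adjusted p = 0.00107 by limma), and the other probes gave 0.82 and 0.79, both called. Top2a, the topoisomerase that untangles sister chromatids, had 9.09, 9.18 and 8.95 in Met fl/fl, against 8.17, 8.14 and 8.71 in Egfr fl/fl. It differed by 0.73 ± 0.18 (SE), 1.66-fold (adjusted p = 0.0103 by limma). In Ncaph, another condensin subunit, Met fl/fl had 8.86, 9.03 and 8.83 and Egfr fl/fl had 8.11, 8.12 and 8.67, a difference of 0.61 ± 0.18 (SE) (adjusted p = 0.024 by limma). Egfr fl/fl replicate 3 was the highest Egfr fl/fl array in all 3 genes, and with it alone standing for Egfr fl/fl the differences were 0.82 for Ncapd2, which was called, and 0.36 for Top2a and 0.24 for Ncaph, which were not. Leaving out any array but this one ended the call for Ncaph, at 0.51 to 0.65, and leaving out Met fl/fl replicate 2 ended it for Top2a, at 0.68.

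**Figure D3:**
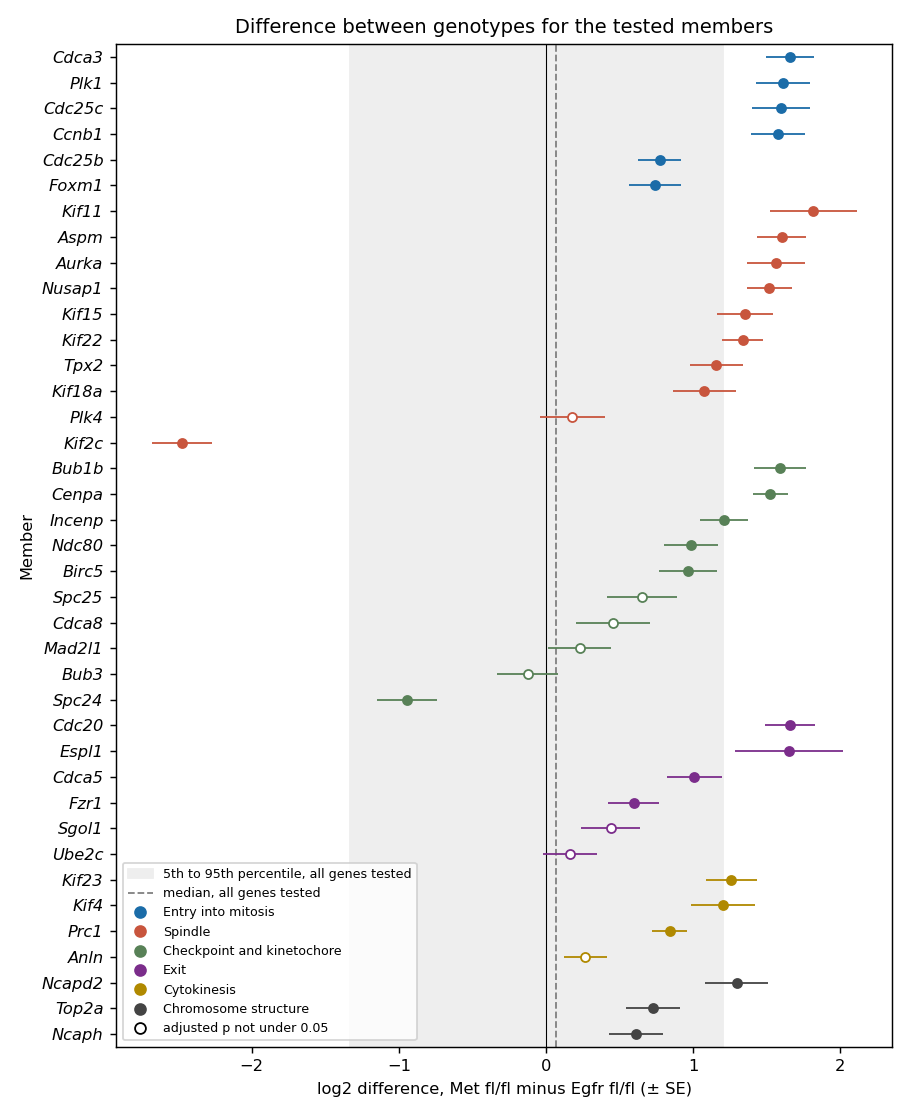
Log2 difference, Met fl/fl minus Egfr fl/fl, with its SE for each tested member, coloured by role, filled where the adjusted p is under 0.05 and open where it is not. The grey band runs from the 5th to the 95th percentile of all genes tested, -1.33 to 1.20, and the dashed line is their median, 0.069.

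Of the 56 tested probes of these genes, 42 were higher in Met fl/fl, 2 were lower and 12 did not pass, beside 21.6% higher and 18.2% lower among all tested probes that name a gene. Of 11 members with more than 1 tested probe, 7 had every probe called in the same direction, 2 had some called (Birc5 and Kif4), 1 had none (Spc25) and 1 had opposite calls (Spc24). The 12 members with a probe but no test were Bub1, Ccna2, Ccnb2, Cenpe, Cks2, Ect2, Hmmr, Nek2, Pttg1, Smc2, Ttk and Wee1. Their 13 probes read 4.39 to 5.12 on the log2 scale, and 9 of the 12 genes were detected on no array. Some tested members also had probes that no array detected, such as Nusap1. Its Met fl/fl mean was 9.46 on the tested probe and 4.63 and 4.67 on the others. An undetected probe therefore does not show that a transcript was absent.

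**Figure D4:**
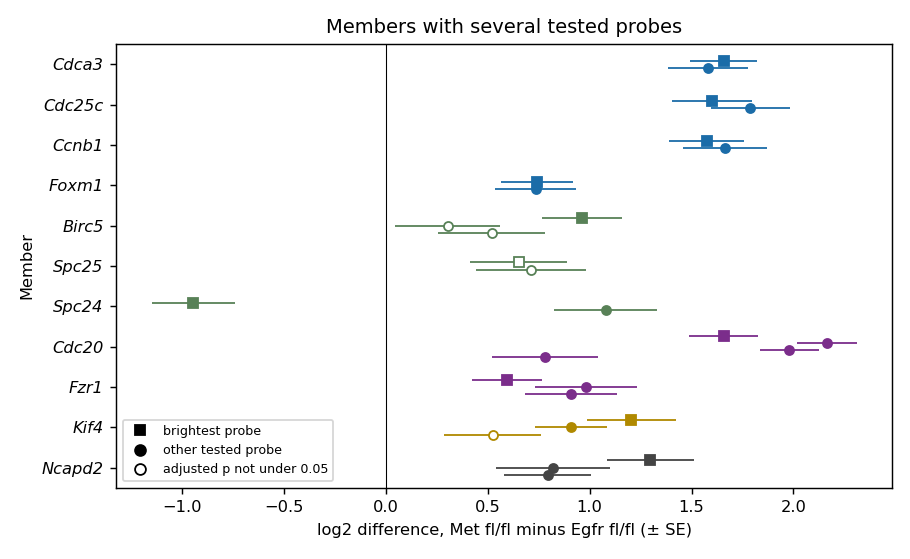
Log2 difference, Met fl/fl minus Egfr fl/fl, with its SE for every tested probe of the 11 members that have more than 1, squares for the brightest probe and circles for the others, open where the adjusted p is not under 0.05. The probes of Spc24 lie on opposite sides of 0, at -0.95 and 1.08.

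Other cell cycle genes were counted for comparison, in lists chosen with earlier results of these data known. Of 76 tested genes of a wider mitosis list, 27 (35.5%) were higher in Met fl/fl and 4 (5.26%) were lower, with a median of 0.23. The shares among all genes tested were 22.8% higher and 18.5% lower. Among its larger differences were those of the kinesin Kif18b (1.76), the anaphase-promoting complex subunit Cdc23 (1.41) and the microtubule-binding Gtse1 (1.36), all higher in Met fl/fl. The importin Kpna2, detected on 2 Met fl/fl arrays, was at least 2.49-fold lower, but not past the threshold without Met fl/fl replicate 3 (fitted value -1.13) or with replicate 3 alone standing for Egfr fl/fl (-0.57), and without Egfr fl/fl replicate 3 the list had 9 lower genes. Cdk1, the kinase that cyclin B activates, was chosen after its values were seen: it had 8.77, 8.57 and 8.49 in Met fl/fl, against 8.68, 8.49 and 8.21 in Egfr fl/fl, with overlapping groups and a difference of 0.15 ± 0.17 (SE) (adjusted p = 0.512 by limma).

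Genes of DNA replication and the G1/S step did not move as one. Of 55 tested, 8 (14.5%) were higher in Met fl/fl and 13 (23.6%) were lower, beside 22.8% and 18.5% of all genes tested. The median was 0.0030, and the 5 with the largest called differences were all lower. Ung, which removes uracil from DNA, had 7.17, 7.01 and 7.11 in Met fl/fl, against 8.82, 8.96 and 8.66 in Egfr fl/fl, a difference of -1.72 ± 0.16 (SE) (adjusted p = 3.14e-05 by limma). Mcm7, a subunit of the replicative helicase, had 5.12, 4.62 and 4.75 in Met fl/fl, against 7.87, 8.11 and 5.06 in Egfr fl/fl. Only 1 Met fl/fl array detected Mcm7, and Egfr fl/fl replicate 3 lies within the Met fl/fl range. On the mean of 3 arrays, the Egfr fl/fl level was at least 4.01-fold higher (adjusted p = 0.0222 by limma). The call was lost on leaving out any array but Egfr fl/fl replicate 3, which alone standing for Egfr fl/fl gave a fitted value of -0.23. The cyclins Ccnd2 (-1.80) and Ccne2 (detected on 1 Met fl/fl array, at least 2.5-fold lower) and the origin-licensing factor Cdc6 (-0.96) were the other three. With replicate 3 alone standing for Egfr fl/fl these gave fitted values of -0.78, -0.63 and -0.66, of which only Ccnd2 passed. Leaving out any array other than Egfr fl/fl replicate 3 brought the number of higher genes in the list to 2 to 5, and leaving out Egfr fl/fl replicate 1 or Met fl/fl replicate 3 brought the number lower to 8.

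Of 29 tested cell cycle regulators, 9 (31.0%) were higher in Met fl/fl and 7 (24.1%) were lower, with a median of -0.0063. Among all genes tested 22.8% were higher and 18.5% were lower, so the shares were near those of all genes. The stress-induced Gadd45a (-2.23), the transcription factors E2f1 (-1.38) and Myc (-1.24) and the Cdk inhibitor Cdkn2b (-1.11) were lower in Met fl/fl. Mdm2, the ubiquitin ligase of p53, was higher (0.997). Without Met fl/fl replicate 3 the number higher was 4.

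**Figure D5:**
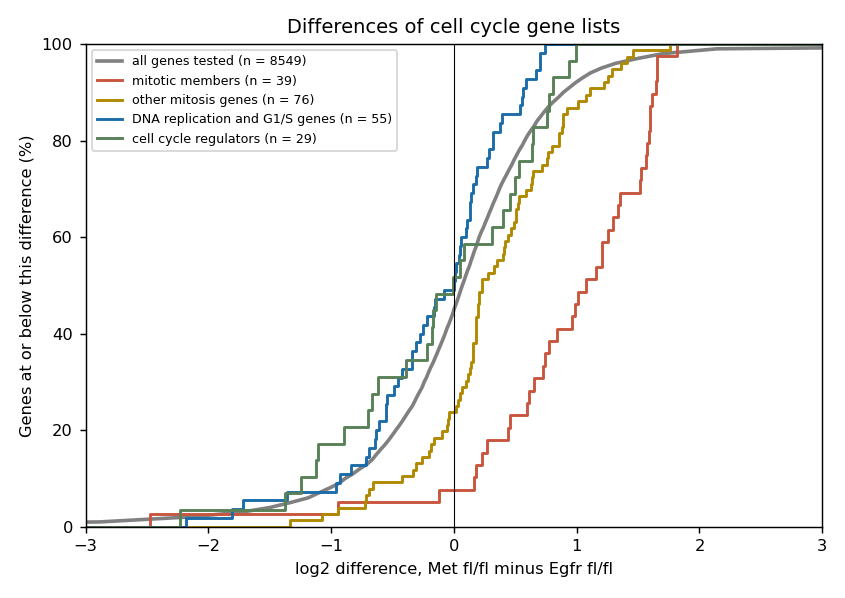
Share of genes (vertical axis, %) at or below each log2 difference, Met fl/fl minus Egfr fl/fl (horizontal axis), for the 39 tested mitotic members, the wider mitosis list (76), the replication and G1/S list (55), the regulators (29) and all 8549 genes tested. The members' curve lies to the right of the others over most of its length, with a median of 1.08 against 0.069 for all genes.

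The samples were checked against markers of liver cell types. The biliary and progenitor keratin Krt19 had means of 10.95 in Met fl/fl, against 10.99 in Egfr fl/fl, and did not pass, while Krt8 (-0.82), Krt18 (-0.49, not past the threshold without Met fl/fl replicate 1 or 2, at -0.45 and -0.48), Krt7 (-1.54) and Sox9 (-1.88) were lower in Met fl/fl. Of the 14 tested markers of that list, 6 were lower and 2, Foxa2 and Itgb4, were higher in Met fl/fl. The hepatocyte marker Alb was not detected on any array, while others, such as Ttr, Hnf4a, Trf and Hp, were detected on every array. Of the 9 tested hepatocyte markers, 2 were called higher in Met fl/fl, Hnf4a (1.43) and Apoa1 (at least 2.39-fold). Another 4 were called lower: Hp (-3.02), Trf (-2.85), Ass1 (-0.98) and Serpina1a (at least 1.51-fold). The normalized level on the linear scale, summed over the probes of the biliary and progenitor markers, was 21195 to 23119 units in Met fl/fl and 32374 to 35822 units in Egfr fl/fl, with 15 and 16 of 20 genes detected. This sum and those below include undetected probes and keep the offset of 16 added in background correction. For stellate and fibroblast markers it was 1607 to 1979 units in Met fl/fl and 4867 to 5156 units in Egfr fl/fl (4 and 5 of 16 detected), and for hepatocyte markers 6158 to 7246 units in Met fl/fl and 11427 to 12477 units in Egfr fl/fl (8 and 9 of 25). Endothelial markers summed to 551 to 625 units in Met fl/fl and 1035 to 1392 units in Egfr fl/fl (6 and 5 of 13), with Cdh5 and Vwf undetected; of the 3 tested, Flt1 was lower in Met fl/fl (-2.26) while Eng and Kdr were not called. Macrophage and leukocyte markers summed to 1698 to 1860 units in Met fl/fl and 886 to 1054 units in Egfr fl/fl (3 and 3 of 15), with Ptprc undetected; of the 3 tested, Cd14 was higher in Met fl/fl (1.56), Csf1r was lower (at least 1.47-fold) and Marco was not called. Some markers of each list differed between the groups. Calls ran in both directions in the biliary and progenitor, hepatocyte, and macrophage and leukocyte lists. All 3 tested stellate and fibroblast markers were lower in Met fl/fl: Acta2 (at least 17.95-fold), Vim (-1.56) and Dcn (at least 1.3-fold). No Met fl/fl array detected Acta2 or Dcn. In every other list some tested markers were not called. Among all genes tested 22.8% were called higher and 18.5% lower. The part of the markers in the result was not tested.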

How the data were processed

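RNA from 3 Met fl/fl and 3 Egfr fl/fl samples of mouse hepatic progenitor cells was measured on Illumina arrays of 1 colour. Per the labels' protocols, a Qiagen kit served for RNA extraction and an Ambion kit for making biotinylated cRNA. GenomeStudio 2011.1 was used, per the submitters' processing notes, while later steps by the authors are not named in those notes. As deposited, the main table holds an intensity per probe on a linear scale, not normalized by the authors and partly below 0, and a detection p-value per probe, per the file headers. A second deposited matrix holds a normalized intensity and served as an alternative.

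Intensities were corrected with limma 3.58.1 in R 4.3.3 by normexp (offset 16, with negative controls estimated from the detection p-values) and quantile normalized as log2 values. This offset understates differences of dim probes. Probes with detection p under 0.05 on at least 3 arrays, 11578 of 25697, entered lmFit and eBayes (variance trend, no covariates), with Benjamini-Hochberg adjustment over all of them at 0.05. A gene is represented by its brightest tested probe. Where 1 or more arrays of the dimmer group did not detect a probe, "at least" gives a bound: on each dim array the probe was raised to the lowest detected signal if below it, and the bright mean was set against the mean of those values. The 3 arrays per group limit the precision. The fit was tested on simulated data.

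Older symbols of the table were updated through the RefSeq gene table. The members and lists, including the chromosome structure class added to the 5 functions, were chosen with earlier results of these data known. Full values were given, in each class, for the 3 called members with the largest difference, for called members against their class and for members with opposite probes, and for at most 5 genes of each further list, of which 1 is not reported here. Alternatives covered background, normalization, offset, filter, variance model, array weights, probe averaging, the replicate block, each array left out, and Egfr fl/fl replicate 3 kept alone in its group. Sequences came from RefSeq.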

Additional observations from a re-analysis of the deposited data

How the results depend on the processing

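Under 18 alternatives the number of members higher in Met fl/fl ran from 25 (median scaling) to 31 (array weights), beside 29, and from 25 to 30 with each array left out in turn. The number lower was 2, apart from 1 with detection p under 0.01 on all 6 arrays, 1 with a gene's probes averaged and 1 with replicate 3 alone standing for Egfr fl/fl. Of the 31 called members, 24 kept direction and call in every alternative in which they were tested (Aspm, Cdc25b, Cdc25c and Kif2c did not enter the filter on detection p under 0.01), and 7 (Birc5, Espl1, Foxm1, Fzr1, Ncaph, Spc24 and Top2a) lost the call in at least 1. The cause was not tested. Spc24 turned to 0.066 with the mean of its probes, which average opposite signs. Of the uncalled members, Bub3 turned to 0.016 with array weights and ran from -0.25 to 0.019 with each array left out, Ube2c ran from -0.011 to 0.27 in the same way, while Anln, Cdca8 and Spc25 were called in at least 1 alternative. Outside the members, Cdk1 turned to -0.024 with array weights, and Krt19 to 0.189 with array weights and from -0.21 to 0.19 with each array left out. The wider mitosis list had 16 genes higher under median scaling, beside 27, and 9 lower without Egfr fl/fl replicate 3 and 11 with array weights, beside 4. The replication list had 1 higher and 8 lower under median scaling, beside 8 and 13, and 24 lower with array weights, and the regulators 5 higher under median scaling, beside 9, and 11 lower with array weights, beside 7. The wider list had 7 lower with the replicate block. Over all genes, 1130 were higher under median scaling and 2924 with array weights, beside 1949. Deviations of same-numbered samples correlated at 0.237, -0.145 and 0.319, not over 0.1 in every pair, and the labels tie the numbers to nothing shared, so the samples were not treated as pairs. With the replicate block 30 members were higher and 2 lower, and not every sample correlated best with its own number. Dim probes near the negative controls limit what can be called for members such as Ube2c.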
